A study of Oryza sativa with 8 samples.

Results

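WRKY transcription factors are a large family of plant DNA-binding proteins, and the loci described here are 56 rice genes of that family, taken as a fixed list of locus identifiers of the Michigan State University release 7 annotation. They make up 56 of the 55986 genes listed in each library. The list follows the gene family and no measured value, but it was drawn up with earlier results of these data known. The experiment compared RNA from digested roots, which held protoplasts together with root pieces that the cell wall enzymes had not broken up, with RNA from intact roots harvested directly. There were 4 libraries of digested roots and 4 of intact roots. All plants were seedlings of Xkitaake, used as the wild type, grown on solidified nutrient medium for 1 to 3 days in a chamber at 28 °C. This line is Kitaake rice that carries the immune receptor gene XA21 as a transgene driven by a maize ubiquitin promoter, so both groups have an added immune receptor. The comparison asks which transcripts differ after wall digestion, the step that frees single cells for sequencing.

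WRKY proteins carry a short conserved peptide that gives the family its name, next to a zinc finger, and bind the W-box, a short DNA element found in the promoters of many defence genes. Plants use them as switches in responses to pathogens, wounding and cell wall damage, and some members activate defence while others restrain it. In rice, OsWRKY45 acts in the salicylic acid branch of immunity, OsWRKY53 is an elicitor-responsive activator that is phosphorylated by mitogen-activated protein kinases, and OsWRKY28, OsWRKY62, OsWRKY71 and OsWRKY76 belong to 1 subgroup of the family, IIa. OsWRKY62 has been described as a negative regulator of the immunity conferred by XA21, and OsWRKY28 and OsWRKY76 as repressors of basal defence. OsWRKY71 was first described as a repressor of gibberellin signalling in the cereal aleurone, the secretory layer of the seed.

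The digested libraries were much shallower, with 115006 to 471019 counts on genes against 2333236 to 3595349 in intact libraries, after the authors removed duplicate reads. Levels are given below as CPM, counts per 1000000, with library sizes scaled by the trimmed mean of M-values over the 13104 genes with enough counts to test. One 3′ tag stands for 1 transcript whatever its length, so levels were not divided by gene length. A single count was worth 2.46 to 9.29 CPM in digested libraries and 0.249 to 0.407 CPM in intact libraries. Reads aligned at more than 1 place equalled 13.0 to 24.3% of all counts in digested libraries and 3.93 to 5.36% in intact libraries. All counts here include those not assigned to a gene. Of 26 root cell type markers from the study, 26 had counts in intact roots and 23 in digested roots, and of the 18 tested in edgeR, 0 were higher and 11 were lower in digested roots. The number higher was also 0 at an unadjusted p under 0.05, in DESeq2 and in limma-voom. The study left genes induced by wall digestion out of its single-cell analysis, so its marker list may lack such genes. That 0 markers were higher may follow from this choice and is no separate result. Over all genes tested in edgeR, 20.0% were higher and 18.5% lower at an adjusted p under 0.05. The summed level of the markers was 311 to 536 CPM in digested libraries and 1098 to 1222 CPM in intact libraries. Multiple alignment, depth and marker level thus moved with digestion. The part of multiple alignment and marker level in the results below was not tested, and values at equal depth are given where they apply. Nothing in the labels says that replicates came from separate plantings, so p-values measure only the spread between these libraries.

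As a family, the WRKY genes took a larger share of the transcripts in digested roots. Their summed level was 3301, 3259, 2026 and 3082 CPM in digested replicates 1 to 4, against 429, 460, 496 and 459 CPM in intact replicates 1 to 4. The lowest digested library thus stood above the highest intact library, and digested replicate 3 was the lowest of its group. The means were 2917 ± 602 CPM in digested roots and 461 ± 27.3 CPM in intact roots (SD, n = 4 each). No test was made of this sum, since the genes were listed with earlier results of these data known.

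**Figure D1:**
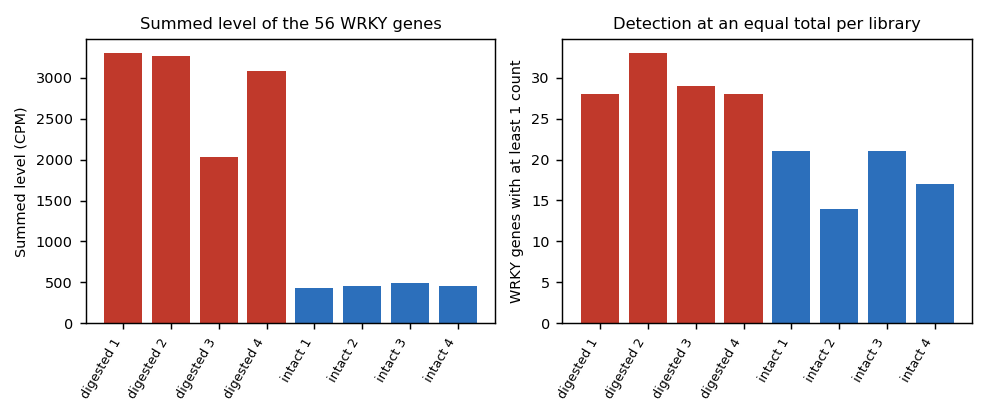
Left, the summed level of the 56 WRKY genes in CPM in each library. Right, the number of these genes with at least 1 count after every library was thinned to 115006 counts in a single random draw. The same number over all genes was not counted. Each bar is 1 library, red for digested and blue for intact roots. The digested bars run from 2026 to 3301 CPM and from 28 to 33 genes, and the intact bars from 429 to 496 CPM and from 14 to 21 genes.

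More members were seen in intact roots before depth was set equal. Between 28 and 38 members had at least 1 count in a digested library, against 39 to 43 in an intact library. With every library thinned to 115006 counts, the number was 28, 33, 29 and 28 in digested replicates 1 to 4 and 21, 14, 21 and 17 in intact replicates 1 to 4. At an equal total, in a single random draw, each digested library held more members than each intact library. The number of all genes seen at this total was not counted, so whether the members differ from other genes is not known. With the intact libraries thinned to the totals of the digested ones, 8 members could be tested and 7 were higher, among them OsWRKY28 (log2 fold change 8.30), OsWRKY71 (6.81) and OsWRKY53 (4.36). In that fit 26.5% of all 4569 tested genes were higher and 21.7% lower.

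The low-count filter left 28 of the 56 members to test. A gene passed when at least 4 libraries reached 7.13 CPM. Among the 28, 12 reached that level in all 4 intact libraries, whereas 11 reached it in all 4 digested libraries and in 0 intact libraries. A gene of the second kind could be tested only because it was high in digested roots, so a count over the 28 describes them and is no measure of the family. The whole table differed here, since 447 of the 13104 tested genes passed in all digested and 0 intact libraries.

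Of the 28 tested members, 20 were higher in digested roots and 2 were lower at an adjusted p under 0.05 (edgeR quasi-likelihood test, Benjamini-Hochberg over all tested genes), and 6 were not called. Over all tested genes, 38.5% were called, 20.0% higher and 18.5% lower. Past an absolute log2 fold change of 2, or 4-fold, 19 members were higher and 1 was lower, where 9.06% of all tested genes were higher and 7.80% lower. All 4 digested libraries lay above all 4 intact ones for 20 members and below them for 2, against 17.4% and 19.8% of all tested genes. For the 11 members that passed in all digested and no intact libraries, the filter itself set this separation. The count of 20 is thus not on a par with the share of all genes. The median log2 fold change was 3.89 over the tested members and -0.06 over all tested genes. Among the 12 members that reached the filter level in every intact library, 7 were higher, 2 were lower and the median was 1.56. The 11521 genes that reached it in the same way had 1841 higher, or 16%, and 2424 lower, or 21%, with a median of -0.15. In bulk roots, a larger share of cells that hold a transcript and more of it per cell cannot be told apart.

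**Figure D2:**
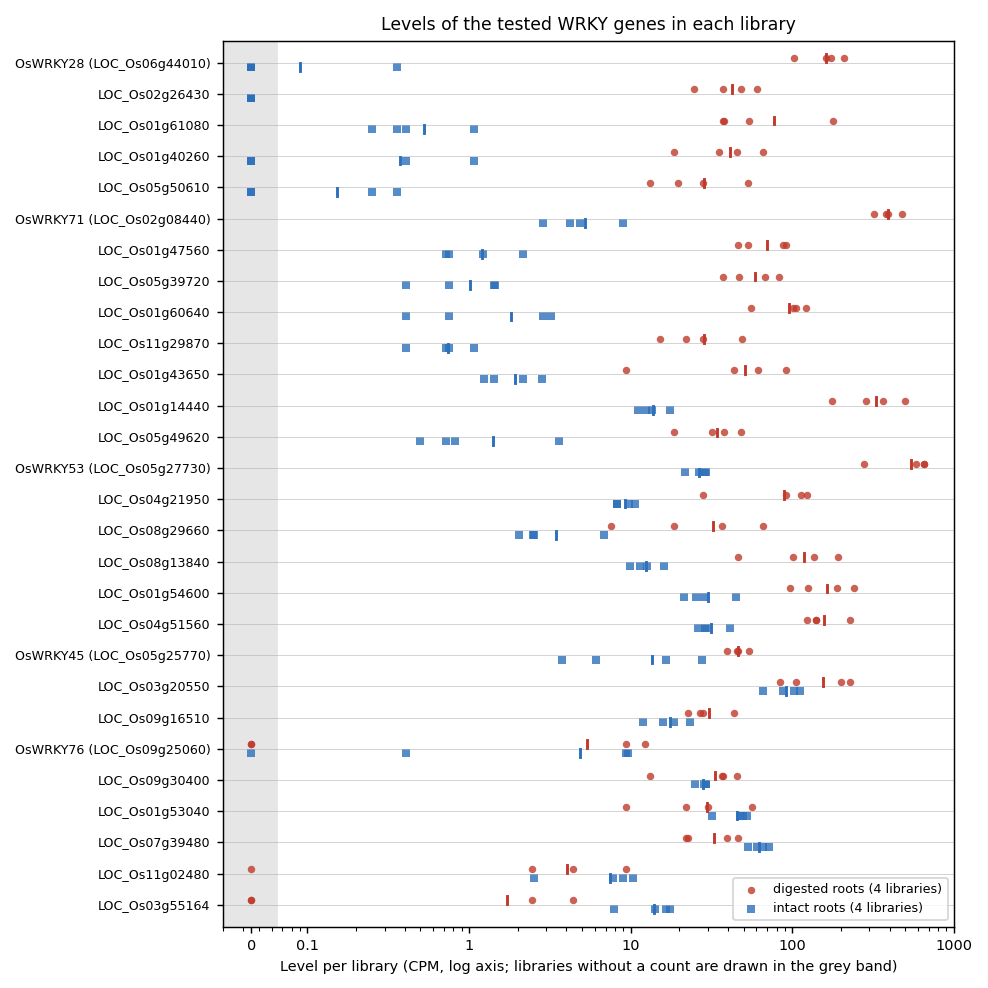
Level of each of the 28 tested WRKY genes in every library, in CPM on a log axis, ordered by fitted change. Red circles are the 4 digested libraries, blue squares the 4 intact libraries, short vertical bars the group means, and points in the grey band are libraries without a count. For 20 genes every red circle lies to the right of every blue square, with OsWRKY28 at the top at 102 to 210 CPM in digested roots and at most 0.360 CPM in intact roots.

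Within the IIa subgroup, OsWRKY28 and OsWRKY71 stood far above their intact levels. OsWRKY28 (LOC_Os06g44010) had 210, 162, 102 and 174 CPM in digested replicates 1 to 4, against 0.360, 0, 0 and 0 CPM in intact replicates 1 to 4. Digested roots gave 148 counts of it and the far deeper intact libraries gave 1. The log2 ratio of its summed levels was 10.99. Counting error alone, as an exact binomial 95% interval, allows 8.49 to 16.31, and the adjusted p was 1.65e-16. OsWRKY71 (LOC_Os02g08440) had 320, 393, 381 and 477 CPM in digested roots and 8.99, 4.88, 2.87 and 4.24 CPM in intact roots. It was high in all 4 digested libraries, and the lowest of them was far above the highest intact one. Its log2 fold change was 6.21 ± 0.27 (SE, adjusted p = 1.06e-16), or 74.1-fold.

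The other IIa genes had few counts and no call. OsWRKY76 (LOC_Os09g25060) had 0, 12.3, 9.29 and 0 CPM in digested roots and 9.35, 0.407, 9.69 and 0 CPM in intact roots. Each group held libraries with and without the transcript, and the groups overlapped. Its 6 counts in digested and 54 in intact roots gave a log2 fold change of 0.53 ± 2.03 (SE, adjusted p = 0.873). No direction can be read from it, since the value was -1.25 without digested replicate 2 and 2.08 in limma-voom. OsWRKY62 (LOC_Os09g25070), whose name is next to that of OsWRKY76 in the gene order of the RefSeq annotation, had 17.5, 4.92, 0 and 0 CPM in digested roots and 3.24, 1.22, 4.31 and 1.25 CPM in intact roots. It fell below the low-count filter, with 6 counts in digested and 29 in intact roots. The log2 ratio of its summed levels was 1.51, and its counting interval ran from -0.05 to 2.80, beside 5.83 to 6.64 for OsWRKY71. A difference between these genes was not tested beyond those intervals.

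OsWRKY53 was the most abundant member in digested roots. OsWRKY53 (LOC_Os05g27730) had 649, 651, 279 and 583 CPM in digested roots and 29.1, 21.6, 28.7 and 26.4 CPM in intact roots. The intact libraries were close together, and digested replicate 3 held less of the transcript than the other digested libraries. The log2 fold change was 4.38 ± 0.23 (SE, adjusted p = 4.84e-15), or 20.9-fold. It made up 18.5% of the family's summed mean level in digested roots, ahead of OsWRKY71 with 13.5% and LOC_Os01g14440 with 11.4%. LOC_Os01g14440 had 495, 366, 177 and 288 CPM in digested roots and 11.1, 17.5, 13.6 and 12.5 CPM in intact roots. The groups were well apart, and its log2 fold change was 4.66 ± 0.26 (SE, adjusted p = 2.81e-14), or 25.2-fold. Digested replicate 3 was again the lowest of its group, as it was for OsWRKY28 but not for OsWRKY71.

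OsWRKY45 (LOC_Os05g25770) was high in every digested library but was not called. It had 39.5, 54.1, 46.5 and 45.4 CPM in digested roots and 16.5, 6.10, 27.6 and 3.74 CPM in intact roots. The groups did not overlap, and the intact libraries were far more spread than the digested ones. The means were 46.4 ± 6.00 CPM in digested and 13.5 ± 10.9 CPM in intact roots (SD, n = 4 each), and the log2 fold change was 1.83 ± 0.70 (SE, adjusted p = 0.0681). The call depended on the processing. Of 18 alternatives, OsWRKY45 was called higher in 7 and not called in 11. It passed the threshold in DESeq2, with 1.64 and an adjusted p of 0.0302, in limma-voom, with 2.35 and 0.00434, and with no filter, with 1.70 and 4.57e-05. It also passed without intact replicate 2 (1.56, adjusted p = 0.0446), replicate 3 (2.41, 0.000421) or replicate 4 (1.39, 0.0174). In edgeR it did not pass without digested replicate 1, 2, 3 or 4 (adjusted p = 0.163, 0.294, 0.171 and 0.159). Nor did it with relative log expression, total-count or upper-quartile scaling (0.0838, 0.0989 and 0.101).

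**Figure D3:**
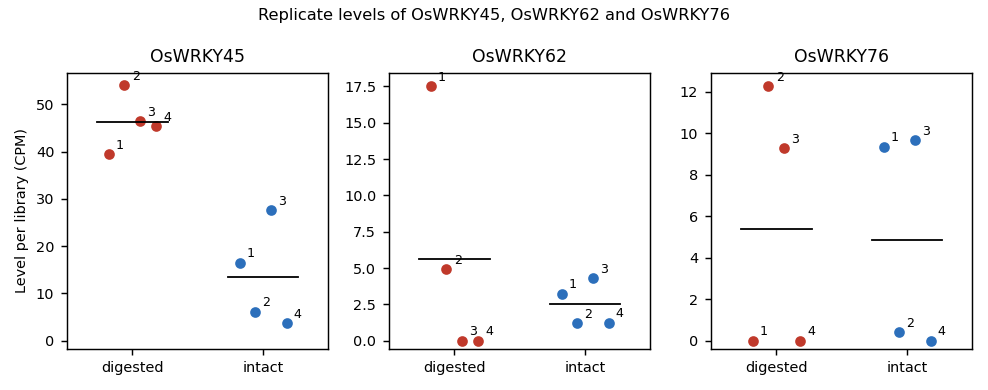
Levels of OsWRKY45, OsWRKY62 and OsWRKY76 in CPM, with digested roots on the left and intact roots on the right of each panel. Points are libraries labelled by replicate number and black lines are group means. In intact roots replicates 1 and 3 lie above replicates 2 and 4 for each of these genes, as in 11 of the 47 members with intact counts, for example 16.5 and 27.6 against 6.10 and 3.74 CPM for OsWRKY45. The share of all genes with this order was not counted.

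Intact replicates 1 and 3 held more than replicates 2 and 4 of OsWRKY45, OsWRKY62 and OsWRKY76. That order was found in 11 of the 47 members with a count in intact roots, OsWRKY53 and LOC_Os01g60640 among them, and not in OsWRKY71, so it was not general in the family. LOC_Os01g60640 had 101, 106, 55.8 and 121 CPM in digested roots and 3.24, 0.407, 2.87 and 0.748 CPM in intact roots. The pathogenesis-related gene OsPR10b showed the same order in intact roots, with 11.5, 7.73, 13.3 and 1.75 CPM. The order was noticed after the values were seen, so no test was made. The share of all genes with this order was not counted, so whether these members differ from other genes in it is not known.

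The largest changes were in OsWRKY28 and other members with little or no transcript in intact roots. Such members passed the low-count filter only because they reached its level in every digested library. That their changes were large thus follows from the filter and is no separate result. LOC_Os02g26430 had 48.2, 24.6, 37.2 and 60.6 CPM in digested roots and no count in any intact library. Against the 3-count limit over the 4 intact libraries, its level in digested roots was at least 151-fold higher (adjusted p = 2.20e-10). LOC_Os01g61080 had 180, 54.1, 37.2 and 37.9 CPM in digested roots and 0.360, 0.407, 1.08 and 0.249 CPM in intact roots. Its log2 fold change of 7.16 ± 0.58 (SE, adjusted p = 1.38e-09) leaned on digested replicate 1 and was 6.26 without it. LOC_Os01g40260 had 35.1, 66.4, 18.6 and 45.4 CPM in digested roots and 1.08, 0.407, 0 and 0 CPM in intact roots, a log2 fold change of 6.83 ± 0.59 (SE, adjusted p = 1.62e-10). All its digested libraries were above the intact ones on only 43 counts in digested and 4 in intact roots, and the value was 7.88 without intact replicate 1, 6.20 without intact replicate 4 and 6.23 without digested replicate 2. LOC_Os05g50610 rested on less, with 21 counts in digested and 2 in intact roots. It had 13.2, 19.7, 27.9 and 53.0 CPM in digested roots and 0, 0, 0.359 and 0.249 CPM in intact roots. Its summed log2 ratio was 7.18 (counting interval 5.14 to 10.31, adjusted p = 1.22e-08). For members this scarce in intact roots the fitted size also depends on the prior count. With a prior count of 2, which moved 11 of the 28 tested members by over 1.5 times, the log2 fold change was 6.99 for OsWRKY28, 5.03 for LOC_Os02g26430, 5.59 for LOC_Os01g61080, 4.93 for LOC_Os01g40260 and 4.21 for LOC_Os05g50610. Across leave-one-out fits and the other alternatives, each of these members was called higher wherever it was tested.

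Between these and the weaker changes lay LOC_Os01g14440, described above, and 9 other members known here by identifier only. LOC_Os01g47560, LOC_Os05g39720, LOC_Os01g60640 and LOC_Os11g29870 had log2 fold changes of 5.92, 5.78, 5.75 and 5.32. LOC_Os01g43650 and LOC_Os05g49620 had 4.81 and 4.64, and LOC_Os04g21950, LOC_Os08g29660 and LOC_Os08g13840 had 3.40, 3.40 and 3.39. In all 9 the lowest digested library was above the highest intact one, although for LOC_Os08g29660 the gap was narrow, 7.57 against 6.82 CPM. Single libraries moved 3 of these values, to 5.55 for LOC_Os05g49620 without intact replicate 1, to 4.55 for LOC_Os11g29870 and to 2.80 for LOC_Os08g13840 without digested replicate 2. Only LOC_Os04g21950 and LOC_Os08g13840 of these 9 reached the filter level in all 4 intact libraries. For those that reached it in all digested and no intact libraries, the filter itself set the separation.

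**Figure D4:**
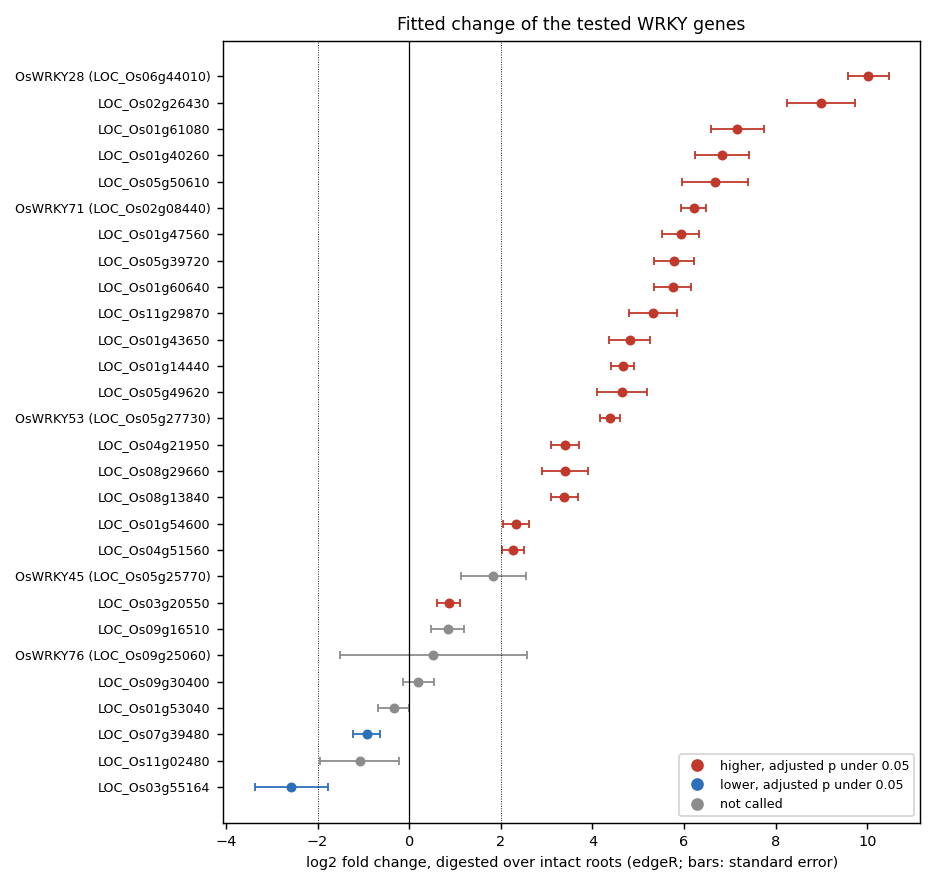
Fitted log2 fold change, digested over intact roots, of the 28 tested WRKY genes, with standard errors as bars. Red points were called higher, blue lower and grey not called at an adjusted p under 0.05, and dotted lines mark log2 fold changes of -2 and 2. Fitted values of members scarce in intact roots depend on the prior count, which the bars do not show. The red points reach up to 10.02 for OsWRKY28 (6.99 with a prior count of 2), and the lowest blue point is LOC_Os03g55164 at -2.58.

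The smallest of the called increases were in members well expressed in intact roots. LOC_Os04g51560 had 123, 140, 139 and 227 CPM in digested roots and 26.3, 29.3, 28.7 and 41.4 CPM in intact roots, a log2 fold change of 2.27 ± 0.24 (SE, adjusted p = 9.68e-09) that was 1.62 with intact libraries thinned. LOC_Os01g54600 had 96.4, 125, 242 and 189 CPM in digested roots and 44.6, 25.2, 21.5 and 28.4 CPM in intact roots, a log2 fold change of 2.33 ± 0.28 (SE, adjusted p = 2.24e-07). In both the groups were apart, and in LOC_Os01g54600 digested replicate 3 was the highest of its group. LOC_Os03g20550, the most abundant member in intact roots with 19.9% of the family's summed mean level, had 228, 199, 83.6 and 106 CPM in digested roots and 65.5, 103, 87.2 and 112 CPM in intact roots. Its groups overlapped, with digested replicates 1 and 2 above and replicates 3 and 4 within the intact range. The log2 fold change of 0.86 ± 0.25 (SE, adjusted p = 0.00724) was called, but the call was lost without digested replicate 1 (0.57, adjusted p = 0.135) or replicate 2 (0.55, adjusted p = 0.187). It was also lost with scaling by total counts (0.55, 0.0706), in DESeq2 (0.66, 0.0963) and with intact libraries thinned to digested depth (0.46, 0.197).

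Both members called lower were expressed in intact roots. LOC_Os07g39480, second in intact roots, had 21.9, 39.3, 46.5 and 22.7 CPM in digested roots and 52.9, 65.5, 72.1 and 60.3 CPM in intact roots. Every digested library was below every intact one, and the log2 fold change was -0.93 ± 0.30 (SE, adjusted p = 0.0136). LOC_Os03g55164 had 4.38, 2.46, 0 and 0 CPM in digested roots and 7.91, 17.5, 16.5 and 14.2 CPM in intact roots. Its 2 counts in digested and 168 in intact roots gave a summed log2 ratio of -2.61 (counting interval -5.67 to -0.73, adjusted p = 0.0113). Its fitted log2 fold change was -2.58, and -3.20 without digested replicate 1 and -1.58 in limma-voom. LOC_Os01g53040, the third most abundant in intact roots, had 21.9, 56.5, 9.29 and 30.3 CPM in digested roots and 31.6, 49.2, 47.7 and 52.6 CPM in intact roots. The groups overlapped because of digested replicate 2, and the log2 fold change of -0.34 ± 0.34 (SE, adjusted p = 0.469) became -1.25 (adjusted p = 0.0386) without that library. LOC_Os09g16510, LOC_Os09g30400 and LOC_Os11g02480 were not called, with log2 fold changes of 0.84, 0.20 and -1.08 and adjusted p of 0.0755, 0.686 and 0.351. LOC_Os09g16510 came just past the threshold without intact replicate 2 (0.94, adjusted p = 0.0489) and in limma-voom (0.94, 0.0498).

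Another 28 members were too low to test. Of these, 8 had no count in any library, and 3 of those 8, LOC_Os11g02530, LOC_Os11g02540 and LOC_Os12g02450, lie by their identifiers near the starts of chromosomes 11 and 12, whose ends share a duplicated segment. Reads that align at more than 1 place were not counted, so a listed 0 there is uncertain, as is the low level of LOC_Os11g02480 nearby. A further 9 had no count in digested roots and between 1 and 51 counts in intact roots. For 8 of the 9, a count of 0 in digested roots, which allows up to 3.43 CPM, could not show a difference at this depth. The exception was LOC_Os03g58420, with 51 counts in intact roots, which was at least 1.24-fold lower in digested roots. With no filter, 48 members could be fitted. Of those otherwise untested, LOC_Os05g46020 (2.58), LOC_Os05g09020 (2.55) and OsWRKY48 (4.70) were called higher and LOC_Os03g58420 lower. In that fit 11.6% of all 25256 genes were higher and 12.3% lower, so these few calls are no result about the untested members as a set.

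OsWRKY48 (LOC_Os05g40060), which the study lists among defence-response genes, had 17.5, 4.92, 0 and 0 CPM in digested roots and 0, 0, 0.359 and 0.249 CPM in intact roots. Its transcript was seen in only the deeper digested libraries, replicates 1 and 2, on 6 counts, against 2 counts in intact roots. The summed log2 ratio was 5.37 (counting interval 2.88 to 8.71), and the adjusted p without the filter was 0.000259. OsWRKY23 (LOC_Os01g53260) had 0, 4.92, 0 and 0 CPM in digested roots and 0.719, 2.03, 1.08 and 1.75 CPM in intact roots. With 2 counts in digested and 17 in intact roots, its summed log2 ratio of 0.70 could lie anywhere between -2.46 and 2.77 by counting error.

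Other defence genes were read from the study's own list, whose genes carry annotations such as immune receptors and peroxidases. The list was drawn up by the study, which includes these libraries, so it is not independent evidence of a direction. The study also left genes induced by wall digestion out of its differential expression analysis, so the list may lack such genes. The number higher below may follow from that choice and cannot be read against the share of all genes. Of its 22 genes other than OsWRKY48 and the PR10 genes, 9 were tested in edgeR. In digested roots 0 of them were higher and 4 lower, where 20.0% of all tested genes were higher and 18.5% lower. The number of listed genes higher was also 0 at an unadjusted p under 0.05 and in limma-voom, and 1 in DESeq2. That gene, annotated RPM1 (LOC_Os11g12040) and named here after its values were seen, had 5 counts in digested and 3 in intact roots. OsPOXgX9 (LOC_Os07g48030), a peroxidase gene, had 0, 9.83, 9.29 and 7.57 CPM in digested roots and 196, 117, 126 and 130 CPM in intact roots, a log2 fold change of -4.37 ± 0.43 (SE, adjusted p = 2.02e-09) that was -5.18 without digested replicate 2. OsGLN1;2 (LOC_Os03g12290), a cytosolic glutamine synthetase gene that serves nitrogen assimilation, had 127, 150, 74.3 and 98.5 CPM in digested roots and 663, 943, 681 and 662 CPM in intact roots. All its digested libraries were below the intact ones, and the log2 fold change was -2.61 ± 0.21 (SE, adjusted p = 3.87e-11). The gene annotated RPS2 (LOC_Os09g10054) had 0 counts in digested and 214 in intact roots, at least 5.18-fold lower in digested roots (adjusted p = 0.0103). The fourth, LOC_Os08g39330, had a log2 fold change of -2.56.

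The PR10 genes, which encode small intracellular pathogenesis-related proteins, moved the other way in 3 of 4 cases. Of all tested genes, 20.0% were called higher. OsPR10 (LOC_Os12g36830) had 1854, 2618, 2017 and 2991 CPM in digested roots and 25.9, 8.95, 11.8 and 4.74 CPM in intact roots. That was a log2 fold change of 7.55 ± 0.50 (SE, adjusted p = 2.86e-06). OsPR10b (LOC_Os12g36850) had 1144, 1163, 307 and 803 CPM in digested roots and the intact levels given above, a log2 fold change of 6.73 ± 0.67 (SE, adjusted p = 0.000175). OsPR10c (LOC_Os12g36860) gave 96 counts in digested and 2 in intact roots, a summed log2 ratio of 9.37 (counting interval 7.48 to 12.43), with both intact counts in replicate 3. In all 3 the digested libraries lay above the intact ones. These 3 genes lie next to each other by their identifiers, so that reads could be shared between copies and their separate levels are uncertain. The remaining gene, also annotated OsPR10 (LOC_Os03g18850), had a log2 fold change of -0.21 (adjusted p = 0.385).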

How the data were processed

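Total RNA from 8 root samples was made into 3′ tag libraries with unique molecular identifiers. The deposited values are whole read counts per gene, 1 file per library, aligned by the authors to the Michigan State University rice genome version 7, deduplicated and counted with HTSeq, without normalization. The submitters' processing notes also name STAR, UMI-tools and edgeR. Rows of reads not assigned to a gene were left out of library sizes. Reads with no feature equalled 13.4 to 14.9% of all counts, unassigned ones included, in digested and 13.0 to 13.9% in intact libraries. The main test was edgeR 4.0.16 (R 4.3.3) with its default filter, trimmed mean of M-values factors, a robust quasi-likelihood fit on condition alone, a prior count of 0.125 and Benjamini-Hochberg adjustment; the fit was tested on simulated data. Standard errors were taken from each gene's change and its F statistic (change over root F). With no count in a group, a bound uses 3 counts over its 4 libraries. Counting intervals cover counting error only.

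The members and lists were chosen with earlier results of these data known. Named members are those with a name in the list or the study, the 5 largest and 5 smallest called changes, and the 3 most abundant per group, with others named where at 0, untested or changing call. From the defence lists, up to 3 genes at each end were named. Alternatives were DESeq2 1.42.0, limma-voom 3.58.1, other scalings, filters and prior count, thinning, a replicate block and leaving out libraries. None of the 56 identifiers matched the RefSeq table, and only OsWRKY62, OsWRKY71 and OsWRKY76 matched by name. No sequences were used here. Libraries of 1 group differed beyond sampling noise (chi-square over its degrees of freedom, 1.72 to 7.65).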

Additional observations from a re-analysis of the deposited data

Results flagged for a closer look

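Among 58 groups of 4 libraries checked, 7 held a library far from the other 3 by Dixon's ratio at its 95% critical value, where chance alone flags about 1 in 20. For 3 of the 7, OsWRKY23, OsWRKY28 and OsPR10c, the other libraries held no count, so that any count at all would be picked out and the chance rate does not apply. Of the WRKY genes, LOC_Os01g61080 had 179.7 CPM in digested replicate 1 against 37.2 to 54.1 CPM in the others, and LOC_Os04g51560 had 227 CPM in digested replicate 4 against 122.7 to 140.1 CPM. OsWRKY23 (LOC_Os01g53260) had 4.92 CPM in digested replicate 2 and no count in the other digested libraries. OsWRKY28 (LOC_Os06g44010) had 0.360 CPM, a single count, in intact replicate 1 and none in the other intact libraries. Of the defence genes, OsPOXgX9 (LOC_Os07g48030) had 196 CPM in intact replicate 1 against 116.7 to 129.9 CPM, OsGLN1;2 (LOC_Os03g12290) had 943 CPM in intact replicate 2 against 662 to 681 CPM, and OsPR10c (LOC_Os12g36860) had 0.718 CPM in intact replicate 3 and no count in the others.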

How the results depend on the processing

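No call among the tested members turned its direction under any alternative. Of the 20 members called higher, 20 kept the call under relative log expression factors, upper-quartile factors, no filter, a mean of at least 5 CPM, limma-voom, the replicate block and a prior count of 2, and 19 under total counts and DESeq2. Thinning intact libraries to digested depth left 4569 genes and 8 members to test, with 7 members higher, 0 lower, 6 higher and 0 lower past a log2 fold change of 2, and a median of 4.52. Of those 4569 genes, 26.5% were higher and 21.7% lower. Lower members past -2 numbered 2 with no filter and 0 in limma-voom. The median of tested members was 1.38 with no filter (48 members), 3.28 with a mean of at least 5 CPM, 2.46 in DESeq2, and 2.89 without the 2 shallowest digested libraries, an alternative chosen after seeing the data that left 21 members higher and 2 lower. The cause beyond the change in members tested was not tested. Leaving out each library in turn gave 17 to 22 members higher and 1 to 3 lower, with a median of 3.09 to 4.48. Past 2 it gave 16 to 21 members higher and 0 to 1 lower. Of the defence and PR10 genes together, 3 were higher and 3 to 5 lower. The 3 lower members came without digested replicate 2, where LOC_Os01g53040 was called. Leaving out any intact library left 22 members to test, without LOC_Os03g55164, so that 1 was lower, and 17 of the 17 called members still tested were higher.

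Scaling moved the median of all tested genes to -0.20 (relative log expression), -0.38 (total counts) and -0.34 (upper quartile), with 2315, 2048 and 2096 genes higher and 2910, 3722 and 3507 lower, against 2618 higher and 2430 lower in the reported fit. Same-numbered libraries did not deviate together (r of -0.29, 0.05, -0.11 and -0.06). Counting error in the shallow digested libraries enters these values, so they cannot show whether the numbers pair the libraries. With the replicate block, 21 members were higher and 2 lower, OsWRKY45 being gained (2.11, adjusted p = 0.000358). The depth of the digested libraries limits members under about 3.43 CPM. W-box and protein searches were not run because no promoter or protein sequences were used here.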
